A study of Mus musculus with 9 samples.

Results

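The Msx and Dlx genes encode homeodomain transcription factors of the developing head. All 8 members listed by name for this description, Msx1, Msx2 and Dlx1 to Dlx6, were found by gene symbol among the 43548 gene identifiers of the table. The rule that lists them uses no measured value, although earlier results of these data were known when they were chosen. Expression was measured by RNAseq in 9 libraries from mouse embryos at E14.5, in 3 groups of 3 libraries. The MCAGF8 cranial vault came from embryos carrying the Msx2-Cre transgene together with CAGF8, an allele at Rosa26 from which Cre releases Fgf8b expression under a CAG promoter. The control groups, cranial vault and cranial base, came from embryos that the labels call wildtype and the methods describe as lacking Cre. By the breeding described in the methods, to mice homozygous for CAGF8, every offspring inherits the allele, so those controls would carry it in its silent form. The strain is labelled as mixed in all groups. Cre in this line acts in the surface ectoderm of the head and not in the skull mesenchyme, with less recombination over part of the parietal and interparietal region. The skin, the layer in which Cre acts, was peeled away before the vault tissue was collected, but epidermal markers were detected in the libraries (below). Each library was a pool of 3 tissue samples, 9 samples per group, so every SD below is the spread between 3 pools. Both control tissues were taken from the control embryos, and the sources used here do not say how their pools match. Values are FPKM, fragments scaled to transcript length and to the mapped reads of the library, which are per length and can be set side by side between genes.

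Msx1 and Msx2 are targets of BMP signalling that keep neural crest mesenchyme proliferating, and loss of function of either affects growth of the skull bones. Dlx genes lie in pairs, tail to tail on a chromosome, and the genes of a pair share enhancers. Dlx1 and Dlx2 pattern the upper parts of the first pharyngeal arch and also act in forebrain interneurons, Dlx5 and Dlx6 specify the lower jaw downstream of endothelin signalling, and Dlx3 and Dlx5 bind promoters of bone matrix genes in osteoblasts. Msx proteins act mostly as repressors, Dlx proteins mostly as activators, and members of both families recognise similar DNA and can bind one another.

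The tissues were checked against markers first. The summed FPKM of 12 chondrocyte markers was 2077 to 3015 in the control vault, 2858 to 5262 in the MCAGF8 vault, and 1014, 10390 and 1525 in libraries 1, 2 and 3 of the control base. Control base libraries 1 and 3, although labelled as cranial base, therefore held less of these cartilage markers than any vault library. Library 2 of the control base also held 7 inner ear markers at a summed 832.7 FPKM, against 1.28 to 6.85 in the other 8 libraries. Neuronal markers summed to 48.9 to 103 in the control vault, 61.2 to 93.0 in the MCAGF8 vault and 347 to 1272 in the control base, with library 3 of the base highest. Much of the sum in the vaults was Stmn2, at 46.8, 73.2 and 33.0 FPKM in the MCAGF8 vault and 35.8, 12.1 and 40.3 in the control vault. Of 9 neuronal markers tested, 1 was called lower in the MCAGF8 vault than in the control vault and none higher. For 3 of them every MCAGF8 library was below every control vault library, where 9.35% of all genes tested were. Skin epidermis markers summed to 69.0 to 135 in the control vault, 488 to 1152 in the MCAGF8 vault and 209 to 1095 in the control base. The MCAGF8 libraries thus held more of these markers in sum than the control vault, with 4 of 20 called higher, against 0.23% of all genes, and none lower. For 12 of the 20 every MCAGF8 library was above every control vault library, where 9.9% of all genes tested were. Krt8 (1.75 to 2.94 FPKM against 2.77 to 10.2) and Krt18 (1.70 to 4.46 against 2.93 to 16.6) had lower means in the MCAGF8 vault. Krt1 and Krt10 reached 136 and 176 in MCAGF8 library 3 and stayed under 10 in libraries 1 and 2. The source of this RNA and its part in the members' values were not tested. Library 2 of the control vault held more skeletal muscle RNA than the other control vault libraries, 5031 FPKM over 10 markers against 809.7 and 1366. The same markers summed to only 51.3 to 184.4 in the MCAGF8 vault, and to 1531 to 10360 in the control base. In the MCAGF8 vault, 7 of the 10 were called lower than in the control vault, where 0.374% of all genes tested were. Against the base 9 were called lower, beside 5.41% of all genes. The part of muscle in the members' values was not tested. In pooled tissue, fewer cells of a type and less RNA per cell cannot be told apart.

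Positions are those of each Ensembl identifier in the GENCODE M21 annotation of GRCm38. Msx1 (ENSMUSG00000048450) lies at chr5:37820485-37824583 and Msx2 (ENSMUSG00000021469) at chr13:53466884-53473074, both on the minus strand. The 3 Dlx pairs lie close together, with 9426 bases between Dlx1 (ENSMUSG00000041911, chr2:71528113-71533981, plus strand) and Dlx2 (ENSMUSG00000023391, chr2:71543408-71546754, minus strand). Dlx3 (ENSMUSG00000001510, chr11:95120119-95125296, plus strand) and Dlx4 (ENSMUSG00000020871, chr11:95140447-95146263, minus strand) are 15150 bases apart. Dlx6 (ENSMUSG00000029754, chr6:6863334-6868568, plus strand) and Dlx5 (ENSMUSG00000029755, chr6:6877805-6882085, minus strand) are 9236 bases apart. Antisense genes overlap Dlx1 (Dlx1as), Dlx4 (Dlx4os) and Dlx6 (Dlx6os1 and Dlx6os2). The libraries were stranded, but the sources used here do not say whether Cufflinks used the strand, so reads of these genes and their antisense partners may not have been told apart.

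The 250 bases before the transcription start are shown for Msx1 and Dlx2, which were called in opposite directions between the MCAGF8 vault and the control base (below). Each lies outside the GENCODE M21 span of its own gene, and overlap with other genes was not checked. They were taken from RefSeq on GRCm38.p6, minus strand, at chr5:37824586-37824835 for Msx1 and chr2:71546755-71547004 for Dlx2. Capitals mark CCAAT, read as ATTGG where it lies on the other strand, and CACGTG, which reads the same on both strands.
Msx1: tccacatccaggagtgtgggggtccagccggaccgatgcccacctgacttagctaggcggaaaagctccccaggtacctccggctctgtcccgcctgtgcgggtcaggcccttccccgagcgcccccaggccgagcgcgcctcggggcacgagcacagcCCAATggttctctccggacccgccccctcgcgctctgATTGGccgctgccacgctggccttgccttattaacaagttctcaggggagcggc
Dlx2: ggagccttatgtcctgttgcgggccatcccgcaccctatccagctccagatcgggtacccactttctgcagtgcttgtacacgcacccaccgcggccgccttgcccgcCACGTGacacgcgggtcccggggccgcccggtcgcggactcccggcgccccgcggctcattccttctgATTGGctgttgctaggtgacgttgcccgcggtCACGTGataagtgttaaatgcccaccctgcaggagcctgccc
The Msx1 window held CCAAT starting 91 bases before the start site, and again on the other strand from 54 bases before it. The Dlx2 window held CACGTG from 142 and from 42 bases before the start site, with CCAAT on the other strand between them. Among 32851 promoter windows of the same length, CCAAT was in 33.8% and at least 2 copies in 10.1%, while CACGTG was in 6.02% and at least 2 copies in 0.429%. The homeodomain motifs TAATTG and TAATTA, found on either strand in 7.17% and 4.84% of all windows, were in neither of these windows. The starts of Msx2 and Dlx1 in the RefSeq table lie inside the longer GENCODE gene and their windows are not shown. Dlx3, Dlx4, Dlx5 and Dlx6 had no window in that table.

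In the control vault, Msx1 and Msx2 were the highest of the 8 genes and alike, at 83.4 ± 7.39 and 80.3 ± 8.39 FPKM (SD, n = 3). Dlx5 followed at 53.8 ± 17.0, Dlx6 at 28.2 ± 15.2 and Dlx3 at 15.1 ± 6.53. Dlx1 was at 4.21 ± 3.84, Dlx2 at 1.52 ± 1.27 and Dlx4 at 0.141 ± 0.0531. Only between Msx2 and Dlx5 did neighbours in this order hold ranges that did not overlap. The pools of the control vault spread little for the Msx genes, whose highest library was 1.16 and 1.21 times the lowest for Msx1 and Msx2. They spread far more for the Dlx genes, by 1.95 times for Dlx5, 2.61 for Dlx3, 3.54 for Dlx6, 16.8 for Dlx1 and 17.8 for Dlx2. For these 5 Dlx genes the lowest control vault library was library 2, the one high in muscle markers. That library differed in other ways as well. It was the lowest of the control vault in summed neuronal markers (48.9 FPKM against 102.6 and 73.7) and in the osteoblast gene Sp7 (55.4 against 104.9 and 122.6). It was the highest in summed chondrocyte markers (3015 against 2139 and 2077) and summed epidermal markers (135 against 90.3 and 69.0). The single epidermal markers did not all follow their sum. Library 2 was the lowest control vault library for Krt8, Krt18, Epcam, Esrp1, Tfap2a and Cldn4. The part of any of these in its low Dlx values was not tested.

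**Figure D1:**
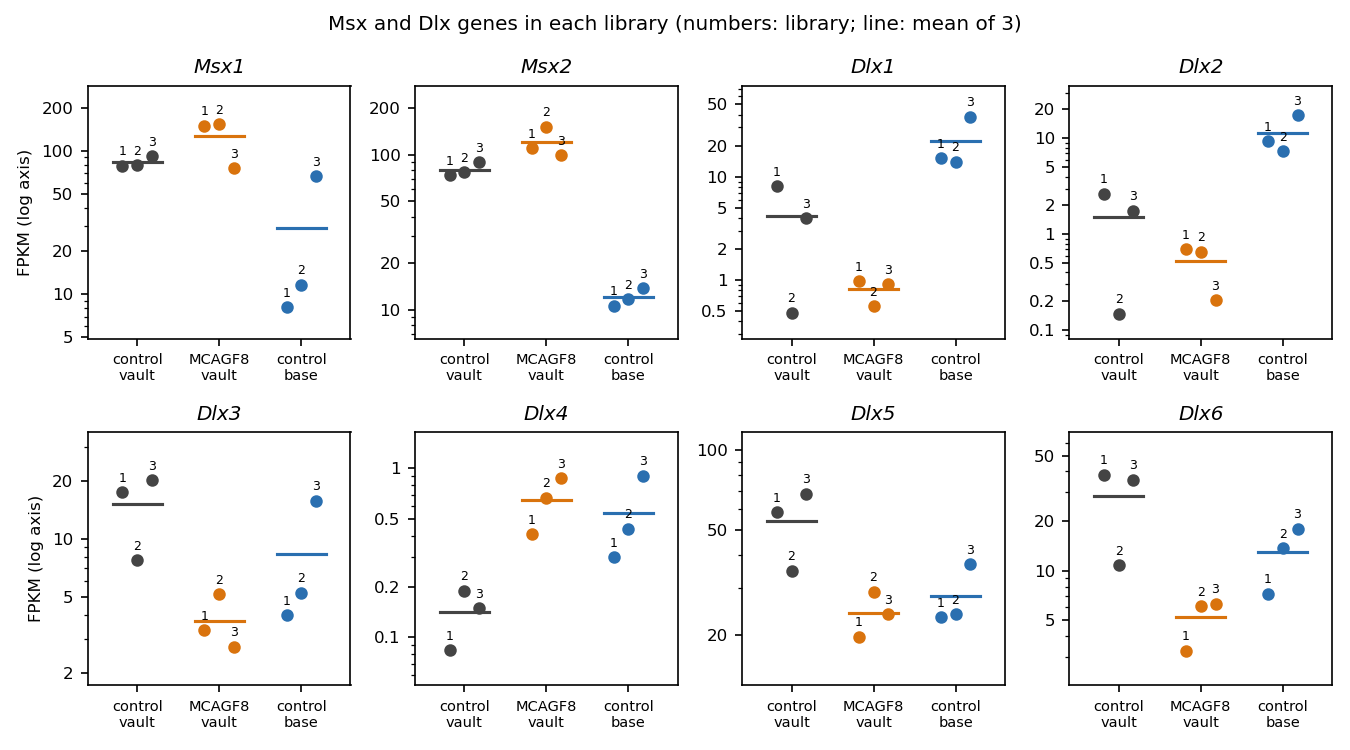
FPKM of each of the 8 genes (log axis, 1 panel per gene) in the 3 libraries of the control vault, the MCAGF8 vault and the control base, with numbered points for libraries and a line for the mean of 3. Msx2 sits between 10.7 and 13.8 in the base and at 73.9 or above in every vault library, whereas Dlx1 and Dlx2 are highest in the base.

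The first comparison asked which members differed when Fgf8b was made in the overlying ectoderm. Between the MCAGF8 vault and the control vault, none of the 7 members that passed the filter (mean FPKM of at least 0.5 over all libraries) was called, a call being an unadjusted p under 0.05 with a Benjamini-Hochberg adjusted p under 0.1 in limma over all 18714 genes tested. The background was 0.604% of genes called, 0.23% higher and 0.374% lower. At an unadjusted p under 0.05, 4 of the 7 passed in limma (Msx2 higher, Dlx3, Dlx5 and Dlx6 lower), against 6.34% of all genes, and a linear model without moderation called none after adjustment. The median log2 difference of the 7 was -1.08, beside -0.01 for all genes tested.

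Dlx6 showed the lowest values relative to the control vault, at 38.1, 10.8 and 35.7 FPKM in control vault libraries 1, 2 and 3 and 3.26, 6.07 and 6.28 in the MCAGF8 vault. All MCAGF8 libraries were below all control vault libraries, with control library 2 nearest to them. The mean was 5.2 ± 1.69 against 28.2 ± 15.2 (SD, n = 3 each), a ratio of control to MCAGF8 of 5.43. On the log2(FPKM + 1) scale used for all tests the difference was -2.09 (SE 0.49, 95% interval -3.18 to -0.996, adjusted p = 0.177 in limma). Without control vault library 2 the difference was -2.65 with an adjusted p of 0.0370 in limma, which passed the call.

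Its partner Dlx5, a factor of osteoblast differentiation, was at 58.1, 35.0 and 68.2 FPKM in the control vault and 19.7, 29.1 and 24.0 in the MCAGF8 vault. The groups did not overlap, and control library 2 was again the lowest control. The log2 difference was -1.08 (SE 0.29, 95% interval -1.72 to -0.44, adjusted p = 0.254 in limma). Dlx6 therefore lay further below the control than Dlx5, and the ratio of Dlx5 to Dlx6 was 6.05, 4.80 and 3.83 in the MCAGF8 vault, above each of the other 6 libraries. That ratio was 1.52, 3.25 and 1.91 in the control vault and 3.23, 1.76 and 2.07 in the control base. The difference between both genes was not tested.

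Dlx3, which activates bone matrix genes and is also made in epidermis, was at 17.4, 7.71 and 20.1 FPKM in the control vault and at 3.34, 5.12 and 2.74 in the MCAGF8 vault. Every MCAGF8 library lay below every control library, and the log2 difference was -1.70 (SE 0.48, 95% interval -2.78 to -0.61, adjusted p = 0.323 in limma). The sum of epidermal markers over the same libraries was 488 to 1152 in the MCAGF8 vault and 69.0 to 135 in the control vault. The part of epidermal RNA in the Dlx3 values was not tested. Dlx4, the neighbour of Dlx3, is mostly a gene of placenta and some epithelia, and it was under the filter with a mean of 0.446 FPKM. It was at 0.0841, 0.189 and 0.149 FPKM in the control vault and 0.407, 0.669 and 0.871 in the MCAGF8 vault, with no overlap, so the neighbours went opposite ways at very different levels. Their ratio, Dlx3 over Dlx4, was 40.8 to 207 in the control vault and 3.14 to 8.23 in the MCAGF8 vault. Dlx4os, which overlaps Dlx4, was also higher in the MCAGF8 vault, at 0.766, 0.847 and 1.12 FPKM against 0.359, 0.236 and 0.132, and its part in the Dlx4 values was not tested.

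Msx2 was at 73.9, 77.1 and 89.8 FPKM in the control vault and 110.3, 152 and 99.2 in the MCAGF8 vault. Its groups did not overlap and its log2 difference was 0.56 (SE 0.20, 95% interval 0.12 to 1.00, adjusted p = 0.530 in limma), not a call. The MCAGF8 embryos carry Cre under an Msx2 promoter, and whether the transgene adds reads to Msx2 was not tested. Msx1 was at 78.9, 79.3 and 91.9 FPKM in the control vault and 149.6, 153 and 75.9 in the MCAGF8 vault. Libraries 1 and 2 of the MCAGF8 vault were above every control and library 3 was below them all. The log2 difference of Msx1 was 0.53 (SE 0.63, 95% interval -0.89 to 1.95, adjusted p = 0.970 in limma), so the data allow a change in either direction.

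Dlx1 was at 8.15, 0.486 and 3.99 FPKM in the control vault and 0.975, 0.562 and 0.910 in the MCAGF8 vault. Control vault library 2 was the lowest of all 6 vault libraries, while the other control libraries were above every MCAGF8 library. The same layout held for Dlx2, at 2.65, 0.149 and 1.77 against 0.698, 0.660 and 0.206. The log2 differences were -1.18 for Dlx1 (SE 0.61, 95% interval -2.54 to 0.19, adjusted p = 0.895) and -0.59 for Dlx2 (SE 0.45, 95% interval -1.59 to 0.41, adjusted p = 0.969), both in limma. Counted over all 8 genes, the groups did not overlap for 5: Msx2 and Dlx4 were higher and Dlx3, Dlx5 and Dlx6 lower in the MCAGF8 vault. Without Dlx4, which was under the filter, 1 of the 7 members tested was higher and 3 were lower without overlap. Of all genes tested, 19.2% did not overlap, 9.9% higher and 9.35% lower.

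**Figure D2:**
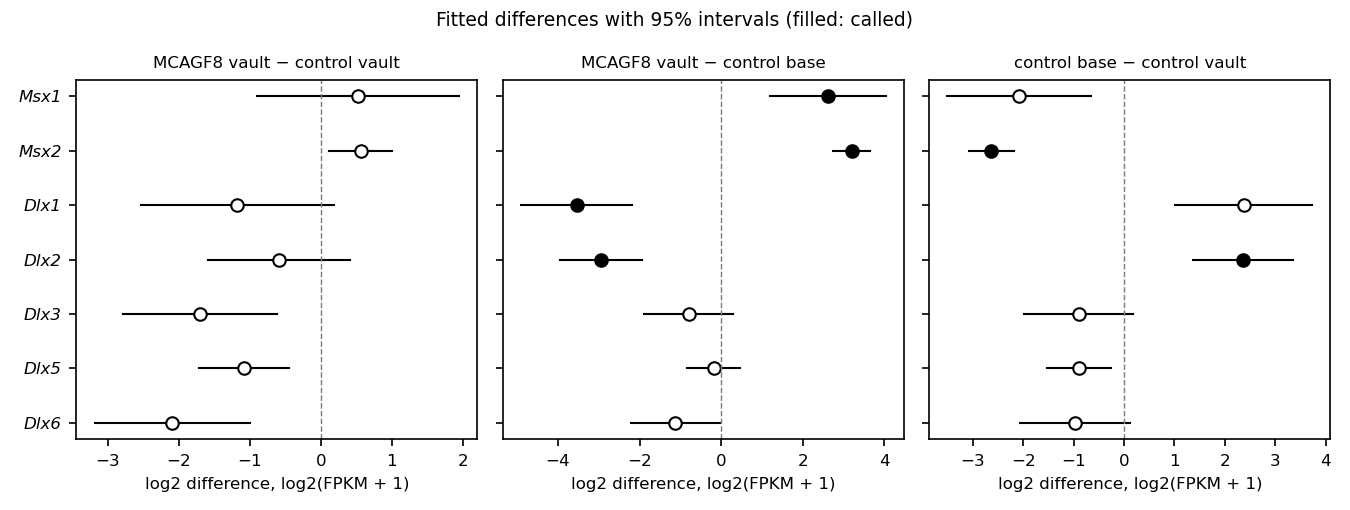
Log2 difference of the 7 members tested, on the log2(FPKM + 1) scale, in the 3 comparisons, with points for the limma estimates (filled where called) and bars for their 95% intervals. Between the vaults the estimates run from -2.09 for Dlx6 to 0.56 for Msx2 and none was called, while against the control base Msx1 and Msx2 lie above 0 and Dlx1 and Dlx2 below it.

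The second comparison set the MCAGF8 vault beside the control base, the part of the skull that normally forms in cartilage. Of the 7 members tested, 4 were called in limma, Msx1 and Msx2 higher and Dlx1 and Dlx2 lower in the MCAGF8 vault, against a background of 8.39% of genes called, 2.98% higher and 5.41% lower. Of all genes called, 35.5% were higher, a share that was 58.7% after quantile normalization and 48.5% after rescaling to the same sum or median. At an unadjusted p under 0.05, 5 of the 7 members passed in limma (Dlx6 lower besides), against 19.6% of all genes. The median of the 7 log2 differences was -0.80, beside -0.07 for all genes tested. Across all 8 genes, 2 were higher without overlap (Msx1, Msx2) and 3 lower (Dlx1, Dlx2, Dlx6), where 21.9% of genes tested did not overlap, 8.91% higher and 13% lower.

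Msx2 had the smallest p of the members. The control base held 10.7, 11.8 and 13.8 FPKM, against 99.2 or more in every MCAGF8 library, and its mean of 12.1 ± 1.59 was exceeded 9.94-fold by the MCAGF8 vault. The log2 difference was 3.19 (SE 0.20, adjusted p = 0.000122 in limma), and the call held in all 22 alternatives. Msx1 in the control base was at 8.13, 11.7 and 66.7 FPKM, so library 3 stood far above the other base libraries and close to the lowest MCAGF8 library at 75.9. Its log2 difference was 2.61 (SE 0.63, adjusted p = 0.0476 in limma), called. The call held in 17 of 22 alternatives. It was lost with only the libraries of both groups compared (adjusted p = 0.112 in limma), in a linear model without moderation (adjusted p = 0.169), and without MCAGF8 library 1 (2.45, adjusted p = 0.172), MCAGF8 library 2 (2.44, adjusted p = 0.153) or control base library 1 (2.05, adjusted p = 0.128), each in limma. In control base library 3 the ratio of Msx1 to Msx2 was 4.82, against 0.761 to 1.36 in the other 8 libraries, so that library was high in Msx1 and not in Msx2. The same library held the most neuronal markers, at a summed 1272 FPKM, and the most dental and oral epithelium markers, at 130.1 FPKM against 20.2 to 67.7 elsewhere. Their part in its Msx1 level was not tested.

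Dlx1 and Dlx2, in contrast, were highest in the control base. Dlx1 was at 15.1, 14.0 and 37.9 FPKM in the base, and no MCAGF8 library reached 1 FPKM. The base mean was 22.4 ± 13.5, 27.4-fold the MCAGF8 mean of 0.816 ± 0.222, and the log2 difference was -3.55 (SE 0.61, adjusted p = 0.0123 in limma). Dlx2 was at 9.31, 7.33 and 17.3 FPKM in the base, a mean of 11.3 ± 5.28 and 21.7-fold the MCAGF8 mean of 0.521 ± 0.274, with a log2 difference of -2.95 (SE 0.45, adjusted p = 0.00886 in limma). Library 3 was the highest base library for both genes. It was also the highest in neuronal markers, and the sum of these markers was above every vault library in all 3 base libraries. The forebrain interneurons that use Dlx1 and Dlx2 were sought by 10 markers of GABAergic forebrain cells. These summed to 3.90 to 6.97 FPKM in the base and 1.33 to 3.72 in the MCAGF8 vault, and 5 of the 10 were under 1 FPKM in every library. The part of neuronal RNA in the Dlx1 and Dlx2 levels was not tested.

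Dlx3, Dlx5 and Dlx6 were not called between the MCAGF8 vault and the control base. Dlx6 was at 7.22, 13.6 and 17.9 FPKM in the base, above all MCAGF8 libraries, with a log2 difference of -1.13 (SE 0.49, adjusted p = 0.243 in limma). Dlx3 was at 3.995, 5.23 and 15.7 in the base and overlapped the MCAGF8 values, its difference being -0.80 (SE 0.48, adjusted p = 0.405 in limma). Dlx5 was at 23.4, 24.0 and 37.1 in the base, overlapping as well, with -0.19 (SE 0.29, 95% interval -0.83 to 0.45, adjusted p = 0.775 in limma), a sign that turned (to 0.02) when libraries were rescaled to the same sum or control base library 3 was left out. The Dlx4 values of the base, 0.298, 0.440 and 0.904 FPKM, overlapped those of the MCAGF8 vault.

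The third comparison set both control tissues side by side. Of the 7 members tested, 2 were called in limma, Msx2 lower and Dlx2 higher in the base, against 3.06% of all genes, 1.85% higher and 1.21% lower. Of all genes called, 60.6% were higher in the base. That share was 37.7% after quantile normalization, 55.7% after rescaling to the same sum and 51.2% after rescaling to the same median. At an unadjusted p under 0.05, 5 of the 7 members passed in limma (Dlx1 higher, Msx1 and Dlx5 lower besides), against 12.8% of all genes. The median of the 7 log2 differences was -0.90, beside 0.07 for all genes tested. Without overlap, Dlx1, Dlx2 and the untested Dlx4 were higher in the base and Msx1 and Msx2 lower. That is 2 higher and 2 lower of the 7 tested, where 15.5% of genes tested did not overlap, 8.86% higher and 6.69% lower.

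Msx2 was 6.63-fold higher in the control vault than in the base (log2 difference of base minus vault -2.64, SE 0.20, adjusted p = 0.000825 in limma), and the call held in all 22 alternatives. The Msx1 difference of -2.08 (SE 0.63, adjusted p = 0.164 in limma) was not a call, although no base library reached the control vault range of 78.9 to 91.9. Without control base library 3 it was -2.97 with an adjusted p of 0.010 in limma. Dlx2 was 7.44-fold higher in the base (log2 difference 2.36, SE 0.45, adjusted p = 0.0396 in limma), a call that held in 15 of 21 alternatives. It was lost without control vault library 3 (2.51, adjusted p = 0.117 in limma) or control base library 3 (2.03, adjusted p = 0.107 in limma), and also with a pseudocount of 0.01, with only the libraries of both groups compared, without moderation and without the log, where adjusted p ran from 0.126 to 0.153 in limma and the linear model. Dlx1 showed nearly the same difference, 2.37 (SE 0.61, adjusted p = 0.102 in limma), just outside the call. It was called without control vault library 1 (2.96, adjusted p = 0.0787 in limma) or control base library 2 (2.62, adjusted p = 0.0706 in limma). Dlx3, Dlx5 and Dlx6 had lower means in the base with overlapping values and no call. Their log2 differences were -0.90 for Dlx3 (adjusted p = 0.521), -0.89 for Dlx5 (adjusted p = 0.189) and -0.97 for Dlx6 (adjusted p = 0.477), all in limma.

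The makeup of the family in the 3 groups was described by shares of summed FPKM, without a test. Msx1 and Msx2 made up 55.1, 74.2 and 58.3% of the summed FPKM of all 8 genes in control vault libraries 1, 2 and 3. That share was 90.2, 87.8 and 83.3% in the MCAGF8 vault and 24.1, 26.6 and 38.8% in the control base, so the 3 groups did not overlap. Summed, the 6 Dlx genes stood at 124, 54.4 and 130.0 FPKM in the control vault and 28.4, 42.2 and 35.0 in the MCAGF8 vault. In the base the sum spanned a range like that of the control vault, 59.3, 64.6 and 127, with other members in it. Dlx1 and Dlx2 gave 33.1 to 43.6% of it, against 1.17 to 8.67% in the control vault and 2.89 to 5.89% in the MCAGF8 vault.

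**Figure D3:**
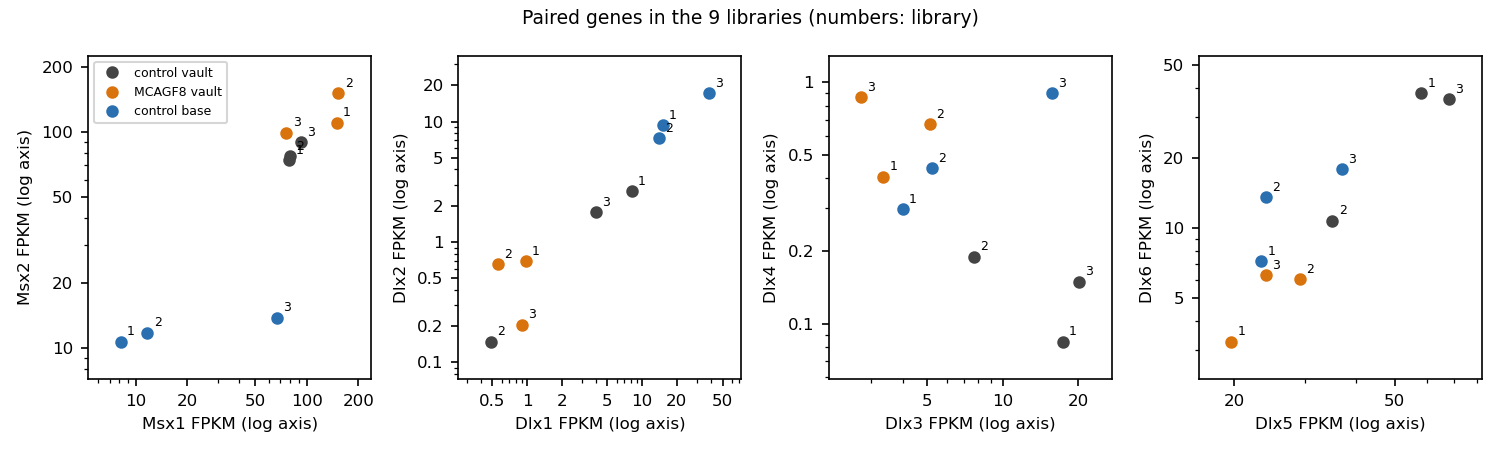
FPKM of the genes of each pair plotted against each other (both axes log) for Msx1 and Msx2, Dlx1 and Dlx2, Dlx3 and Dlx4, and Dlx5 and Dlx6, with 1 numbered point per library and colors for the 3 groups. Control base library 3 stands alone with Msx1 at 66.7 and Msx2 at 13.8, and the MCAGF8 libraries lie at low Dlx6 for their Dlx5. The ratio of Dlx1 to Dlx2 is 2.26 to 3.27 in the control vault and 1.62 to 2.19 in the base, and scatters from 0.852 to 4.43 in the MCAGF8 vault.

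Genes of a pair varied together to different degrees. Over the 9 libraries, which share their 3 groups, Pearson's r of log2(FPKM + 1) was 0.98 for Dlx1 with Dlx2, 0.91 for Dlx5 with Dlx6 and -0.40 for Dlx3 with Dlx4. For Msx1 and Msx2, which are on different chromosomes, r was 0.86. Dlx3 varied most like Dlx5 (r = 0.93) and Dlx6 (r = 0.92), which are on another chromosome. Msx2 ran opposite to Dlx2 (r = -0.90) and Dlx1 (r = -0.87). These values describe the 9 libraries, and differences between groups and within groups were not separated in them.

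Among 12928 other genes with a mean of at least 5 FPKM, those closest to each member over the same 9 libraries were also listed. Bgn, a small proteoglycan of bone and skin matrix, had the pattern most like Msx2 (r = 0.996), followed by Apod (0.992) and Kank4 (0.991). For Msx1 they were Adcy5, Numbl and Esyt1 (r = 0.978, 0.978 and 0.975). Dlx1 and Dlx2 shared Chga and Rtn1, both genes of neuroendocrine and neural cells, with r from 0.984 to 0.993, and the third gene was Sox2, of neural and epithelial progenitors, for Dlx1 (0.991) and Tbx2 for Dlx2 (0.985). Sox2 was at 0.307 to 5.18 FPKM in the control vault, 0.125 to 0.646 in the MCAGF8 vault and 8.94 to 21.6 in the base. For Dlx3 the closest genes were Rcor2 (0.973), Dmp1, a matrix protein of mature bone cells (0.954), and Slc13a5, a citrate transporter (0.954). Slc13a5 was also second for Dlx6 (0.951), after Ano1 (0.960) and before Kazald1 (0.933), and Dlx5 lay closest to Ifngr1 (0.977), Tcf7 (0.958) and Rasa3 (0.95).

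The genes around the members were read from 5 lists. The first held transcripts at the same loci. Msx3, the remaining Msx gene and one of the dorsal neural tube, did not exceed 0.06 FPKM in any library. Dlx1as passed the call only between the MCAGF8 vault and the base, lower by a log2 difference of -2.37 (adjusted p = 0.0655 in limma), the direction of Dlx1. Dlx1as was at 0.344 FPKM in MCAGF8 library 1, listed at 0 in the other two, and at 1.34, 4.70 and 13.0 in the base, and its call held in 12 of 21 alternatives. Dlx6os1 was lower in the MCAGF8 vault than in the control vault without overlap, by -0.90 (adjusted p = 0.742 in limma), and Dlx4os higher by 0.62 (adjusted p = 0.631 in limma), neither of them a call. Between the control tissues no transcript of this list was called by limma, and 1 had an unadjusted p under 0.05, Dlx1as with a difference of 1.59 (adjusted p = 0.303 in limma).

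Among 23 genes of BMP signalling, which induces Msx genes, none was called between the MCAGF8 vault and the control vault by limma, 4 having an unadjusted p under 0.05, and the median log2 difference was 0.05. Bmp4, a ligand, was at 85.4, 89.1 and 66.5 FPKM in the MCAGF8 vault and 51.3, 58.8 and 49.0 in the control vault. All its MCAGF8 libraries were above all control libraries, with a log2 difference of 0.58 (adjusted p = 0.320 in limma). The pseudoreceptor Bambi was at -0.95 (adjusted p = 0.410 in limma). Against the base, Bmp4 (0.94, adjusted p = 0.0140) and Bmp7 (0.87, adjusted p = 0.0407) were higher and the antagonist Grem1 (-1.67, adjusted p = 0.0108) was lower in the MCAGF8 vault by limma. Grem1 was also called higher in the base than in the control vault (1.07, adjusted p = 0.0947 in limma), a call that held in 2 of 21 alternatives.

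The 15 endothelin and arch genes, which act upstream or downstream of Dlx5 and Dlx6 in the jaw, included 14 that were tested. Mef2c, a partner of endothelin signalling and a muscle and bone factor, was the only call between the vaults, at 16.2, 11.0 and 18.4 FPKM in the MCAGF8 vault and 36.8, 39.2 and 30.2 in the control. All MCAGF8 libraries were lower, by a log2 difference of -1.19 (adjusted p = 0.0768 in limma), a call that held in 8 of 22 alternatives. The ligand Edn1 was at 4.54, 5.31 and 3.67 FPKM in the MCAGF8 vault and 1.69 to 1.72 in the control vault, a difference of 1.02 without a call (adjusted p = 0.138 in limma). Skeletal muscle markers fell in the same comparison, 7 of 10 being called lower, and the part of muscle in Mef2c was not tested. Between the MCAGF8 vault and the base, 5 of the 14 were called lower, against 5.41% of all genes tested, and Edn1 higher (0.92, adjusted p = 0.0473 in limma). Those lower were Mef2c (-1.17, adjusted p = 0.0162), Barx1 (-4.37, adjusted p = 0.0384), Lhx8 (-2.44, adjusted p = 0.0481), Pitx1 (-3.05, adjusted p = 0.0483) and Hand2 (-2.11, adjusted p = 0.0773), all by limma, and the call of Hand2 held in 6 of 21 alternatives. The last 4 are transcription factors of the oral and jaw mesenchyme, and the list median was -0.96. Between the control tissues, Hand2 was higher in the base (2.79, adjusted p = 0.0547 in limma, held in 13 of 21 alternatives).

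Of 16 osteoblast genes tied to Msx2 and Dlx5, 7 were called lower in the MCAGF8 vault than in the control vault and none higher. The share over all genes tested was 0.374% lower and 0.23% higher. The median log2 difference of the list was -2.03. Ibsp, a bone matrix protein whose promoter binds Dlx factors, was at 1487, 679 and 1527 FPKM in the control vault and 11.5, 50.7 and 12.5 in the mutant. The log2 difference of Ibsp was -5.81 (adjusted p = 0.0146 in limma), and Spp1 (-5.01, adjusted p = 0.0158), Phospho1 (-3.79, adjusted p = 0.0374) and Ifitm5 (-3.84, adjusted p = 0.0385) were the next by p in limma. The other calls were Dmp1, Bglap2 and Sp7, which held in 13 of 22, 11 of 21 and 12 of 22 alternatives. Control vault library 2 was the lowest control library for Ibsp, as for Dlx5 and Dlx6. Against the base, 4 of the 16 were called lower in the MCAGF8 vault (Ibsp, Spp1, Phospho1, Ifitm5) and 3 higher (Col1a1, Col1a2, Sparc), with a median of -0.58. Over all genes tested, 5.41% were called lower and 2.98% higher. The call of Sparc held in 10 of 22 alternatives. Between the control tissues, 5 of the 16 were called lower in the base, against 1.21% of all genes tested, and the median was -1.54. Among the 5 were Col1a1 and Col1a2, the chains of type I collagen, at -2.30 and -2.14 (adjusted p = 0.0160 and 0.0158 in limma). The others, Sparc, Bglap2 and Runx2, were called in 13 of 22, 10 of 21 and 9 of 22 alternatives.

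The last list held 9 genes whose proteins bind Msx or Dlx. None was called between the vaults by limma, 1 having an unadjusted p under 0.05. The corepressor Tle1 was at 38.5, 47.5 and 28.3 FPKM in the MCAGF8 vault and 21.0, 24.1 and 22.2 in the control vault, with a difference of 0.71 (adjusted p = 0.390 in limma), and Tle4 followed with 0.40 (adjusted p = 0.958 in limma). Pax9, a partner of Msx1 in tooth and arch mesenchyme, followed the pattern of Dlx1 and Dlx2. It was at 17.9, 6.47 and 24.1 FPKM in the base and under 1 FPKM in every MCAGF8 library, lower there by -3.18 (adjusted p = 0.0108 in limma), and it was higher in the base than in the control vault by 2.59 (adjusted p = 0.0466 in limma). Twist1 was higher in the MCAGF8 vault than in the base by 1.29 (adjusted p = 0.0776 in limma), a call that held in 10 of 22 alternatives.

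**Figure D4:**
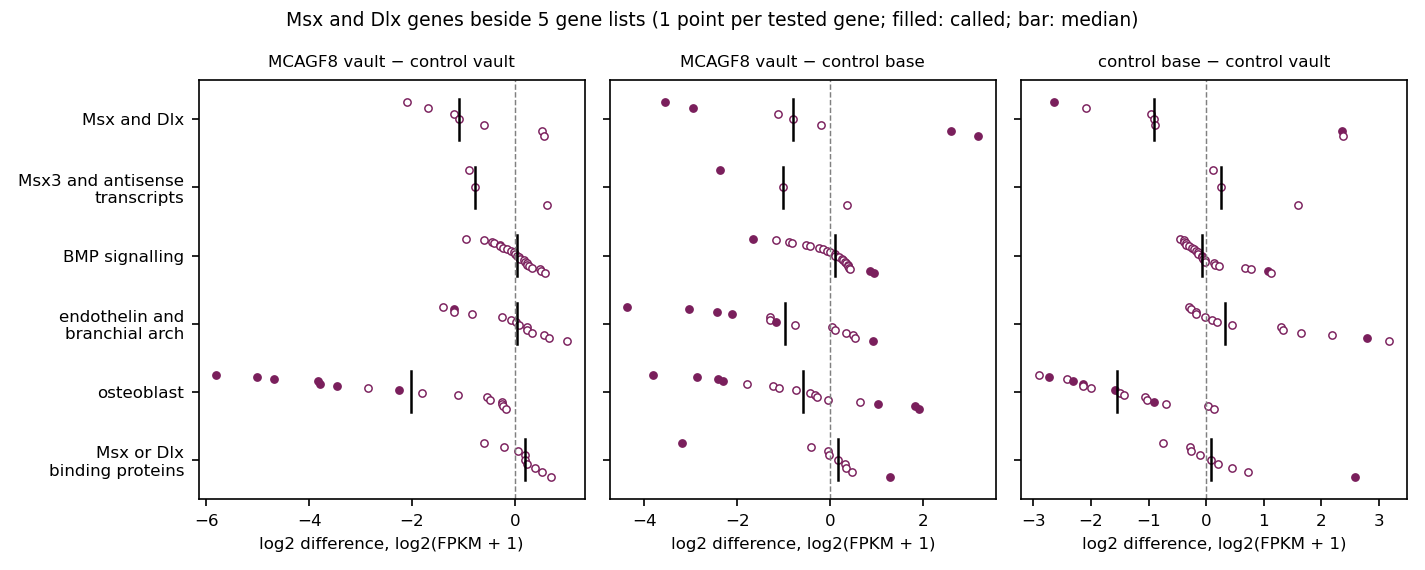
Log2 difference of every tested gene of the members and of the 5 lists, on the log2(FPKM + 1) scale, in the 3 comparisons, with 1 point per gene (filled where called) and a bar at each median. Between the vaults the osteoblast genes lie lowest with a median of -2.03, the members have a median of -1.08 and the BMP genes lie around 0.05.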

How the data were processed

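RNAseq was analysed in 9 libraries, 3 pools each of control vault, MCAGF8 vault and control base at E14.5. The authors prepared stranded mRNA libraries, mapped single-end reads with gSNAP and deposited FPKM per Ensembl gene as derived by Cufflinks. Genome build, annotation, program versions and read numbers were not given in the sources used here, hence depth is unknown and intervals for counting error could not be had.

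From these FPKM, 63 rows repeating an identifier were summed with their partners and 9 genes with the placeholder 999999999 in 17 cells were left out, none of them a member. FPKM summed to 793249 to 1315981 per library and were not rescaled. The 18714 genes whose mean FPKM was 0.5 or more entered a limma fit (version 3.58.1, R 4.3.3; lmFit, contrasts.fit, eBayes with trend) on log2(FPKM + 1), 1 mean per group, two-sided, all libraries taken as independent. With a pseudocount of 1, differences of low genes are understated. A call needed p under 0.05 before, and under 0.1 after, Benjamini-Hochberg adjustment over all genes. An exact permutation test of 3 against 3 libraries cannot go below p = 0.1 and was not used. Folds are ratios of mean FPKM. The fit was tested on simulated data. Tables were handled in Python 3.11.15 (pandas 2.3.3, numpy 2.4.6, matplotlib 3.10.9).

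The members and lists were chosen with earlier results of these data known. Named were all 8 members, the 3 genes most like each tested member, and up to 4 called genes per list and comparison by p, otherwise the 2 with the smallest p. Msx3, the levels of Sox2 and called list genes beyond 4 were added after their values were seen. Alternatives changed the pseudocount (0.1, 0.01), the filter (none, mean FPKM 5), the scaling (3 ways), and used only the 2 groups compared, the replicate block, no moderation, FPKM without the log, the highest row of repeated identifiers, other thresholds, and each library left out. Leaving out library 2 of both control tissues together was added after seeing the data.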

Additional observations from a re-analysis of the deposited data

How the results depend on the processing

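Of the members tested, none was called between the vaults. Without control vault library 2 there was 1 (Dlx6), giving a range of 0 to 1 over the libraries left out, without library 2 of both control tissues there were 2 (Dlx5, Dlx6), and at an unadjusted p there were 4. Calls between the MCAGF8 vault and the base numbered 3 to 5 in every alternative, beside 4. Between the control tissues the count of 2 fell to 1 with a pseudocount of 0.01, a mean FPKM of at least 5 (which leaves out Dlx2), only the 2 groups compared, no moderation or no log, ranged from 1 to 3 over the libraries left out (1 without control vault library 3), and was 5 at an unadjusted p. Dlx5 between the MCAGF8 vault and the base turned from -0.19 to 0.0165 with libraries rescaled to a sum of 1000000 and, over the libraries left out, ranged from -0.324 to 0.0197, the last without control base library 3. That rescaling moved the median of all genes to 0.13 between the vaults and to 0.11 against the base. With the replicate number as a block, 0, 4 and 2 members were called in the 3 comparisons, as without it. The r of deviations of same-numbered libraries ran from -0.549 to 0.37 and was not above 0.1 in every pair of any comparison, so the numbers were not taken to pair samples, and whether control pools share embryos is not known. Libraries correlated best with their own number in 2 of 9 cases, a hint from the data only. All genes called numbered 113 between the vaults (0 without moderation, 1186 at an unadjusted p, 11 to 273 with a library left out, 11 without control vault library 1 or 3), 1571 against the base (529 to 4561) and 573 between the control tissues (130 to 2396). Without control base library 2, the one high in inner ear markers, they numbered 273, 4561 and 1335, and with the replicate block 19, 918 and 234. Values of low genes such as Dlx2 and Dlx4 are limited by an unknown depth. Each of the other differences of single members kept its sign in every alternative.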
